A study of Mus musculus with 72 samples.

Results

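The reporters described here are the integrated reporter genes listed on mouse chromosome 7, chosen by a single rule, that the deposited table places them on that chromosome (mm9 positions, all pools of cells). They number 902 of 17857 reporters in the whole series. The study measured chromatin position effects by TRIP (a screen of many barcoded reporters integrated in parallel): a reporter driven by the mouse PGK promoter and marked with a random barcode was delivered by piggyBac transposition into EBRTcH3 mouse embryonic stem cells, and the RNA and genomic DNA reads of each barcode were counted. Groups of cells, the 6 pools mPGK-A to mPGK-F, were made, and each was divided into 2 cultures that served as technical replicates. All pools share the same promoter, cell line and medium (conditioned medium with leukemia inhibitory factor, PD0325901 and CHIR99021), and the line carries a tetracycline-controlled transactivator expressed from the ROSA26 locus. Cells with low eGFP signal were sorted shortly after transfection, so the pools come from that sorted population only. Sorted cells grew for 5 days before pools were made, pools for 7 days, and the divided cultures for 7 days. Pools are therefore the samples compared here, though they share that sorted population and are not shown to be separate transfections. Replicates measure the spread between cultures of 1 pool, and no untreated group or second promoter enters. Only reporter barcodes were counted, so the identity of the cells could not be checked against marker genes.

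A gene placed at random takes on part of the activity of its surroundings, since promoters respond to nearby enhancers, to compact or open chromatin and to contact with the nuclear lamina. The PGK promoter drives a housekeeping gene of glycolysis and is active in most cell types, so its output is used to read the surroundings rather than the promoter. The piggyBac transposon inserts at TTAA sequences and is known to favour open, active chromatin. Mouse chromosome 7 is known for large arrays of olfactory and vomeronasal receptor genes, which are silent in stem cells, for clusters of zinc finger genes and for imprinted domains. Which reporters lie near them was not analysed here, as no gene annotation of mm9 was used.

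Each reporter is known by its barcode, which is transcribed and is what the reads count. The 5 strongest reporters of the chromosome, the 5 weakest with any RNA read and the reporter without RNA reads that had most DNA reads are shown, because the values below refer to them. Capitals mark the barcode, which is the whole of each run, written 5′ to 3′.
Strongest, mPGK-E, minus strand at 13599549: GAGGTTTCAGTTCAAT
Second strongest, mPGK-E, minus strand at 80752176: ATACTATATAGAACCC
Next, mPGK-B, plus strand at 80681372: TAGCAAAAGCACATCA
Next, mPGK-E, plus strand at 28964273: GGTGCCTTGCAAATTT
Next, mPGK-A, plus strand at 3201003: GAATCGGATGTAGTAT
Weakest with RNA, mPGK-C, minus strand at 82864234: CCCAAACTTGGGTCTT
Next weakest, mPGK-F, plus strand at 47059349: TTTTAAACTCAGATAG
Next weakest, mPGK-F, minus strand at 85309904: ACGTAAGTTAAATTAT
Next weakest, mPGK-F, plus strand at 127153694: TCAACGACATTATAGA
Next weakest, mPGK-E, minus strand at 151709471: CCACGACCAATACATT
No RNA read, mPGK-C, plus strand at 64229861: ATATCAAAATCTATCT
The barcodes of reporters called higher than their pool's median held 40.9% ± 12.3 G and C on average (SD, n = 396 barcodes), and those called lower held 41.0% ± 12.0 (SD, n = 257 barcodes). The base composition of the barcode thus differed by less than its spread between the groups.

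Expression of a reporter is the log2 ratio of its share of the pool's RNA reads to its share of the DNA reads. Each RNA count had 0.5 added, DNA counts had nothing added, and the median of that ratio in the pool was subtracted. A value of 0 is the median reporter of the pool, and the value is the mean of both replicates. Reads come from whole cultures, so fewer expressing cells and less RNA per cell cannot be told apart. Each pool had 2880244 to 3508366 RNA reads and 3386477 to 3693449 DNA reads per replicate, over all chromosomes. The median reporter of chromosome 7 rested on between 1264 and 1963.5 DNA reads per pool, both replicates added. The replicates of a pool ranked the chromosome 7 reporters alike, with Spearman's rho from 0.928 in mPGK-A to 0.951 in mPGK-E across reporters, which are not independent replicates. The SD between replicates of 1 reporter was 0.763 log2 units, pooled over reporters.

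Output on chromosome 7 was spread widely around the pool median and lay slightly to its high side. Values ran from -4.41 at the 5th percentile to 3.57 at the 95th, a 252-fold range, with a mean of 0.10, a median of 0.40 and an SD of 2.43 over 902 reporters. Above the median of their own pool lay 511 reporters, which is 56.7%. By edgeR's quasi-likelihood test of RNA against DNA reads with Benjamini-Hochberg adjustment over all reporters of the series, at 0.05, 396 reporters (43.9%) were higher than the pool median, against 36.9% of all reporters tested. The same test called 257 (28.5%) lower, against 33.7% of all. More than 16-fold above the median were 22 reporters (2.44%, against 2.47% of all), and more than 16-fold below were 57 (6.32%, against 6.48% of all), so the extremes were about as frequent as in the series as a whole.

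The chromosome lay above the rest of the genome in each pool. The mean over its reporters exceeded that over all other reporters by 0.20 in mPGK-A, 0.40 in mPGK-B, 0.39 in mPGK-C, 0.30 in mPGK-D, 0.36 in mPGK-E and 0.15 in mPGK-F, in log2 units. The mean difference was 0.30 ± 0.10 (SD, n = 6 pools), or 1.23-fold, with a two-sided p of 0.031 by an exact permutation test that flips the signs of the 6 pool differences. That is the smallest p the design allows, and adjusted over the 6 such tests made here it was 0.094 by the same exact test, which does not pass 0.05. After this adjustment a test can pass only if most of the 6 reach that smallest p, which they did not. Among the 19 autosomes, chromosome 11 and 1 other had a higher mean than chromosome 7, and 16 had a lower one. Orientation made no such difference. The 425 reporters on the plus strand minus the 477 on the minus strand gave -0.01 ± 0.34 (SD, n = 6 pools, exact permutation p = 1), with a positive sign in 3 of the 6 pools, and the interval of values over pools, -0.54 to 0.38, leaves room for a difference either way.

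**Figure D1:**
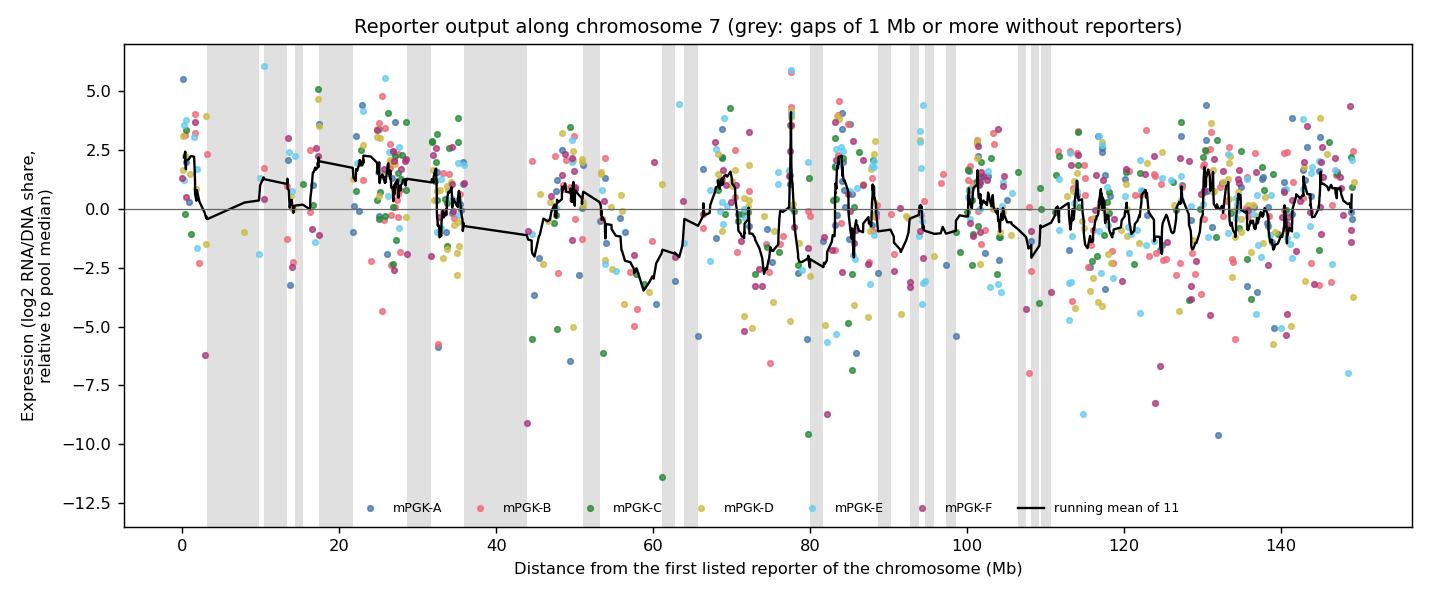
Expression of each of the 902 reporters (vertical axis, log2 RNA share over DNA share relative to the pool median) against distance from the first listed reporter in Mb, coloured by pool, with the running mean of 11 consecutive reporters as a black line and the 18 gaps of 1 Mb or more in grey. The 6 longest gaps all lie in the first part of the chromosome, where the running mean also stays above 0 for 16.1 Mb, and the line swings most sharply near the middle.

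The strongest reporters were not gathered in 1 place, and each was read alike in both replicates. The reporter GAGGTTTCAGTTCAAT had values of 6.05 and 6.12, from 554 and 541 DNA reads and 12325 and 13194 RNA reads, and stood 67.9-fold above the median of mPGK-E. The next, ATACTATATAGAACCC, had 5.81 and 5.95, and TAGCAAAAGCACATCA had 5.87 and 5.72; both lie in the cluster that starts at 80654171, described further on, in different pools. The reporter GGTGCCTTGCAAATTT reached 5.42 and 5.66. The fifth, GAATCGGATGTAGTAT, with 5.36 and 5.65, is among the first reporters of the chromosome.

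The weakest reporters had few or no RNA reads although their DNA was well covered. The reporter CCCAAACTTGGGTCTT had 52349 and 44845 DNA reads, the largest DNA count of any reporter in the series, and 16 and 33 RNA reads, which gave -10.22 and -8.86 and placed it 747-fold below the pool median. It alone made up 1.47% and 1.23% of the DNA reads of mPGK-C in the replicates. The reporter ACGTAAGTTAAATTAT had 1 and 20 RNA reads beside 6236 and 6038 DNA reads, and TCAACGACATTATAGA had 3 and 35 beside 9550 and 8045. In both, replicate 1 lay more than 3 log2 units below replicate 2, so their exact depth is uncertain while their place far below the median is not. CCACGACCAATACATT had 8 and 0 RNA reads from 938 and 622 DNA reads. Of the 4 reporters without any RNA read, ATATCAAAATCTATCT had most DNA reads, 4001 and 3333, and was at least 887-fold lower than the median of mPGK-C, taking 3 RNA reads over both replicates as the floor. PCR reads carry no molecular identifiers here, so floors and counting intervals cover counting error only.

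In blocks of 10 Mb, the chromosome opened high, had low blocks at 40 to 50 and 60 to 70 Mb and was mixed elsewhere. The block from 20 to 30 Mb had the highest mean, 1.65 ± 2.07 (SD, n = 56 reporters), and was positive in 6 of 6 pools, with pool means from 0.81 to 2.44. The first block, up to 10 Mb, followed with 1.53 ± 2.46 (SD, n = 28 reporters). The lowest blocks were 40 to 50 Mb, with -2.26 ± 3.20 (SD, n = 10 reporters), and 60 to 70 Mb, with -2.08 ± 3.27 (SD, n = 21 reporters); in each, 1 of the 6 pools had a positive mean. The block between them, 50 to 60 Mb, was not low, with a mean of 0.10 and a median of 0.55 over 61 reporters. The block from 80 to 90 Mb was the most mixed of the well-filled ones. Its 91 reporters averaged 0.31 with an SD of 3.20, and it held 7 of the 22 reporters over 16-fold above the median together with 11 of the 57 over 16-fold below. From 120 Mb to the end no block reached a mean of 0.6 in either direction.

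Chromosome 7 stood out among the autosomes for its long stretches without reporters. Integrations spanned 149 Mb, from 3153187 to 152490390, at 6.04 per Mb, the lowest density of the 19 autosomes, where the others had 6.47 to 9.0. Between neighbouring reporters of any pool there were 18 gaps of 1 Mb or more, which added up to 41.6 Mb, 27.9% of that span, and the other autosomes had 5.68% to 17.2%. Outside these gaps the density was 8.37 per Mb, which ranked 10 among the 19 autosomes, and the median distance between neighbours, 62.6 kb, was exceeded by 12 of the 18 others. Reporters were thus sparse through a few long empty stretches and not throughout. No test was made of this difference, since 1 chromosome is 1 value, and how much of each gap is sequence to which reads cannot be mapped was not tested.

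The longest gap of the chromosome ran for 8.03 Mb, from 39029964 to 47059349, and no other autosome had a gap above 4.07 Mb. Its left edge was a reporter of mPGK-E with 2.13 and 1.58 in the replicates, called higher (edgeR, Benjamini-Hochberg adjusted p = 4.2e-05). Its right edge was TTTTAAACTCAGATAG of mPGK-F, with 0 and 2 RNA reads from 1297 and 1945 DNA reads, or 618-fold below the median with a 95% Poisson interval of 171-fold to 5107-fold. The 5 reporters on the left of this gap averaged 1.19 and the 5 on the right averaged -2.92, so these means lay on opposite sides of the median. Those on the right were widely spread, from -9.08 to 2.03 with an SD of 4.38, 3 called lower and 1 higher. Their 2 Mb window, compared with the rest of the genome as described further on, was not called (limma, Benjamini-Hochberg adjusted p = 0.070).

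The other 5 of the 6 longest gaps had edges of every kind. The gap of 4.74 Mb from 6312131 was entered by a mPGK-B reporter at 2.15 and 2.53 and left at 11053445 by a mPGK-D reporter at -1.04 and -0.94, which was not called. The gap of 4.36 Mb from 20516138 lay between 2 reporters called higher, of mPGK-A with 3.27 and 3.97 and of mPGK-D with 1.32 and 1.22. The gap of 3.15 Mb from 31739886 lay between 2 reporters of mPGK-F called lower, with -2.57 and -1.23 on the left and -2.34 and -1.68 on the right. The strongest reporter of the chromosome, GAGGTTTCAGTTCAAT, was the left edge of the gap of 2.88 Mb that ends at 16482655, where a mPGK-B reporter had -0.96 and -1.64. The gap of 2.08 Mb from 54257785 lay between reporters of mPGK-D, at 0.10 and 0.16, and mPGK-A, at -0.15 and -0.90, neither of them called. In each of these 6 gaps the left edge was the higher of its pair, though in the gaps of 3.15 and 2.08 Mb by less than the replicates of an edge differed.

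Over all 18 gaps, most edge reporters were low. The 35 edge reporters, of which the one at 11053445 borders 2 gaps, had a mean of -1.14 ± 2.77 (SD) and the other 867 a mean of 0.15 ± 2.41 (SD). Of the edge reporters 20 were called lower (57.1%, against 33.7% of all reporters of the series) and 9 higher (25.7%, against 36.9%). By pool, edge minus other reporters was -1.57 in mPGK-A, -0.68 in mPGK-B, -0.65 in mPGK-C, -0.67 in mPGK-D, 0.23 in mPGK-E and -3.88 in mPGK-F. The mean, -1.20 ± 1.43 (SD, n = 6 pools), had a two-sided exact permutation p of 0.0625 and 0.125 adjusted over the 6 tests, so it did not pass 0.05. Each pool had 4 to 7 edge reporters, and mPGK-F, which holds the silent right edge of the longest gap, weighed most: without it the mean was -0.67. With gaps of 2 Mb or more only, the difference turned to 0.27. Off chromosome 7 the same contrast gave -1.57 ± 0.35 (SD, n = 6 pools), negative in 6 of 6, and the difference between chromosome 7 and the rest, 0.36, had an exact permutation p of 0.56 (0.84 adjusted).

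Local density of integrations went with output more evenly across pools. Reporters with 5 or more others of any pool within 100 kb, 134 in all, averaged 1.34 ± 1.90 (SD), with 87 called higher (64.9%, against 36.9% of all reporters of the series) and 15 lower (11.2%, against 33.7%). The 608 with 1 to 4 such neighbours averaged 0.15 ± 2.37 (SD). The 160 with none averaged -1.10 ± 2.52 (SD), with 36 called higher (22.5%) and 72 lower (45.0%). Dense minus isolated was 3.57 in mPGK-A, 2.24 in mPGK-B, 2.06 in mPGK-C, 2.78 in mPGK-D, 2.36 in mPGK-E and 1.82 in mPGK-F, so every pool had the same sign. The mean of 2.47 ± 0.63 (SD, n = 6 pools) is 5.55-fold, with an exact permutation p of 0.031, the smallest possible, and 0.094 after adjustment over the 6 tests, which misses 0.05. As for the level, passing was not possible unless most of the 6 tests reached that smallest p. Elsewhere in the genome the contrast was 2.43 ± 0.21 (SD, n = 6 pools), and the difference between chromosome 7 and the rest, 0.04 with pool values from -0.40 to 1.33, had an exact permutation p of 0.97. Edge reporters and isolated reporters overlap, since 20 of the 35 edges have no neighbour within 100 kb. The 140 isolated reporters that were no edges averaged -1.02. Median DNA reads were alike, 1630 for dense and 1614 for isolated reporters.

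**Figure D2:**
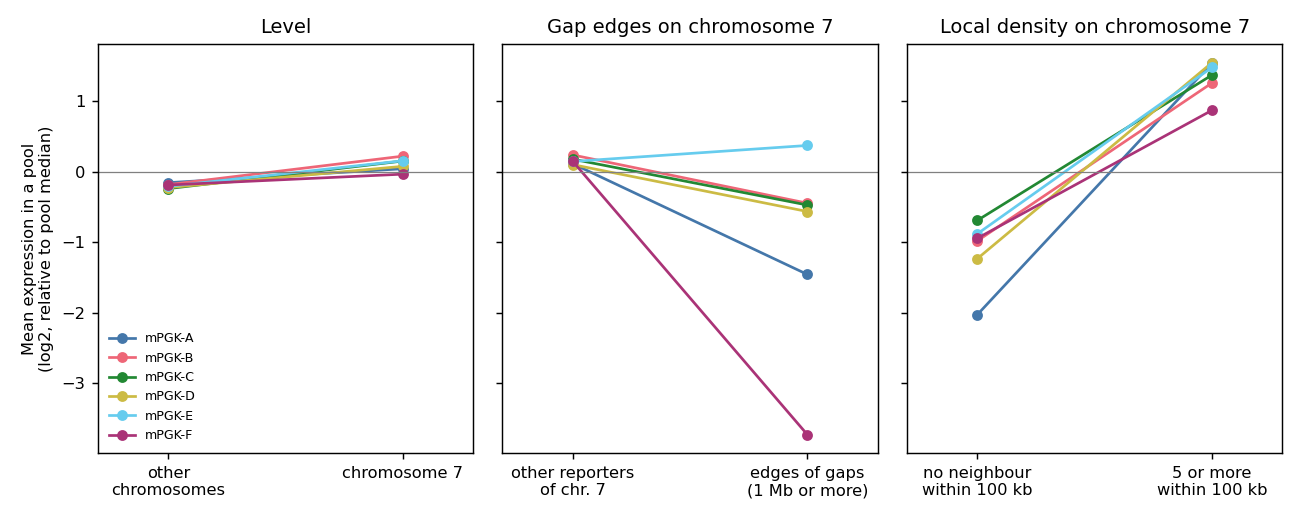
Mean expression in each of the 6 pools (vertical axis, log2 relative to the pool median), a line joining the values of 1 pool, for chromosome 7 against other chromosomes, gap edges against other reporters of chromosome 7, and dense against isolated reporters. The lines of the right panel all rise, by 1.82 to 3.57, while in the middle panel mPGK-F falls by 3.88 and mPGK-E does not fall.

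To place runs of output on a scale with pools as samples, windows of 2 Mb with 5 or more reporters from 3 or more pools were compared with the rest of the genome by limma, weighted by the number of reporters, over all chromosomes. On chromosome 7, 56 windows holding 855 reporters were tested. Of these, 8 were higher (14.3%, against 8.05% of the windows of the genome) and 4 were lower (7.14%, against 9.86%) at a Benjamini-Hochberg adjusted p of 0.05. At an unadjusted 0.05 the counts were 10 and 7, but the share over all windows of the genome at that threshold was not counted. Higher windows lay in the first part of the chromosome, up to 32 Mb, and again at 80 to 82, 86 to 88 and 104 to 106 Mb. Lower windows lay between 60 and 112 Mb.

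The first of the higher windows was that from 2 to 4 Mb. Its 13 reporters exceeded the rest by 3.89, 3.30, 1.80, 2.54, 3.05 and 1.08 in mPGK-A to mPGK-F, a difference of 2.59 ± 0.55 (limma, SE, 6 pools, adjusted p = 0.0023), and 12 of them were called higher singly. The window from 86 to 88 Mb had 30 reporters, a difference of 1.75 ± 0.37 (limma, SE, adjusted p = 0.0023) and values from 1.02 to 4.08 by pool. The window from 28 to 30 Mb had 30 reporters and 1.59 ± 0.37 (limma, SE, adjusted p = 0.0033), and 10 of the 30 came from mPGK-B. These 3 kept their call in each alternative fit of the same windows, which left out a pool or a replicate, used another pseudocount or dropped the weights. At 20 to 22 Mb the difference was 2.59 ± 0.79 (limma, adjusted p = 0.022) from 8 reporters of 5 pools, of which mPGK-E went the other way with -1.22; the call was lost without mPGK-C (2.20, limma adjusted p = 0.064), without mPGK-D (2.02, adjusted p = 0.13), without replicate 1 (2.52, adjusted p = 0.059) and without weights. At 26 to 28 Mb it was 2.46 ± 0.72 (limma, adjusted p = 0.017) from 9 reporters, and the call was lost without mPGK-D (2.06, adjusted p = 0.12), mPGK-E (2.22, adjusted p = 0.068) or mPGK-F (2.32, adjusted p = 0.05005). At 80 to 82 Mb it was 1.87 ± 0.47 (limma, adjusted p = 0.0063) from 24 reporters, and the call was lost without mPGK-E (1.55, adjusted p = 0.065) and without weights.

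Lower windows held few reporters, as low stretches do here. The window from 84 to 86 Mb had 6 reporters from 4 pools, all 6 called lower, with differences from -5.45 in mPGK-E to -1.23 in mPGK-A and a weighted difference of -3.75 ± 0.84 (limma, SE, adjusted p = 0.0030). The window from 60 to 62 Mb also had 6 of 6 called lower, from 3 pools, at -3.13 ± 0.84 (limma, SE, adjusted p = 0.010). These 2 calls held in every alternative fit in which the window kept the minimum of reporters and pools. At 110 to 112 Mb the difference was -2.51 ± 0.83 (limma, adjusted p = 0.035) from 6 reporters of 3 pools, and the call was lost without replicate 1 (-2.20, adjusted p = 0.082), without weights and, at an unchanged value, when mPGK-E left the fit (adjusted p = 0.052). At 76 to 78 Mb it was -1.90 ± 0.67 (limma, adjusted p = 0.048) from 9 reporters. That call was lost in 8 of 10 alternative fits, with limma adjusted p-values of 0.051 to 0.26 and values of -2.05 to -1.43, the smallest without mPGK-F. Leaving out mPGK-F left 0 lower windows, since the other 3 then fell under that minimum and were not tested.

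**Figure D3:**
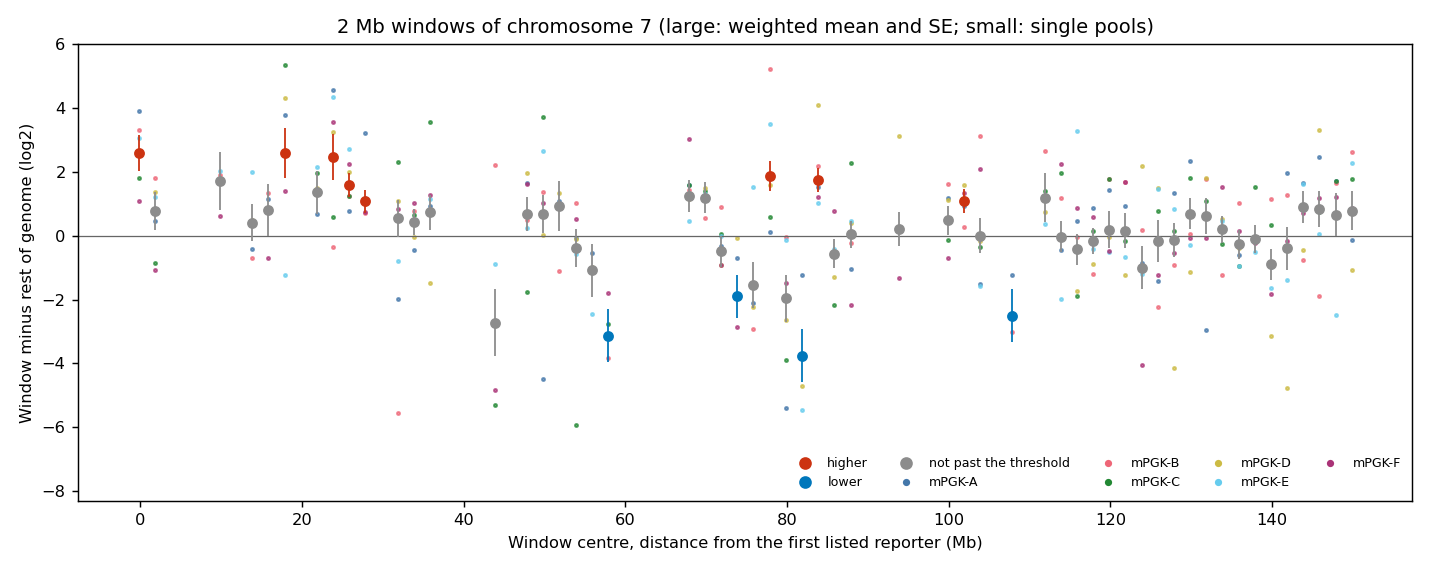
Difference between each of the 56 tested 2 Mb windows of chromosome 7 and the rest of the genome (vertical axis, log2, large points with SE), against the window's distance from the first listed reporter in Mb, with the single pools as small points. The 8 higher windows are red and the 4 lower ones blue, and the lowest, at -3.75, has a window of -1.96 that was not called on its left and a higher window of 1.75 on its right.

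Along the chromosome, consecutive reporters changed sides of the median often. There were 369 runs of reporters on 1 side, 185 high and 184 low, with a median of 2 reporters, and 174 runs were of a single reporter. Runs of 5 or more numbered 49 and held 349 reporters, 38.7% of the 902, where the other autosomes had 30.3% to 50.7%. The longest low run had 14 reporters, fewer than on any of the 18 other autosomes (15 to 28), and the longest high run also had 14 (11 to 24 elsewhere). Runs were found by the values and are described without a test.

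The longest high run included 1 of the 2 densest clusters of the chromosome, each with 10 reporters within 100 kb. It ran from 80654171 to 80940436, 286 kb, and held 14 reporters from all 6 pools with a mean of 3.32 ± 1.80 (SD), of which 12 were called higher and none lower. Its first 10 reporters, within 99.1 kb, had values from 1.06 to 5.88 with a median of 4.01, and all 10 were called higher. By position they came from mPGK-A, mPGK-F, mPGK-C, mPGK-B, mPGK-D, mPGK-E, mPGK-D, mPGK-D, mPGK-E and mPGK-B, so all 6 pools had high reporters at the same place. The 2 last reporters of the run, at 80805227 and 80940436, had 0.21 and -0.10, and 0.51 and -0.12, in their replicates and were not called. The first of them lay 30202 bases after a mPGK-D reporter at 3.68 and 4.09, though a single reporter does not place a boundary there.

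Its left side was interrupted by a single reporter. At 80627081 a mPGK-D reporter had 3530 and 3477 DNA reads but 60 and 26 RNA reads, giving -4.14 and -5.37, and it was called lower. The next reporter lay 27.1 kb to the right at 1.06, and the previous one 61.3 kb to the left at 1.45. Counting from 80452013, 18 of 19 reporters over 488 kb were above their pool's median, and this one was the exception. The stretch was chosen after the values were seen and ends where the high reporters end, so its count is a description only.

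Directly after this cluster came a low stretch. The run from 81067013 to 82864234 held 8 reporters from 5 pools with a mean of -3.14 ± 3.06 (SD), 7 of them called lower, and ended at CCCAAACTTGGGTCTT, the weakest with RNA. Between it and the next low run lay 4 reporters, 2 above the median and 2 below. That second low run, from 83141840 to 85929526, held 8 reporters from 5 pools with a mean of -3.35 ± 2.86 (SD), including ACGTAAGTTAAATTAT at -10.65 and -6.80. Output then rose again. The run from 87192453 to 88046500 held 10 reporters at 2.03 ± 1.36 (SD), of which 6 came from mPGK-A.

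**Figure D4:**
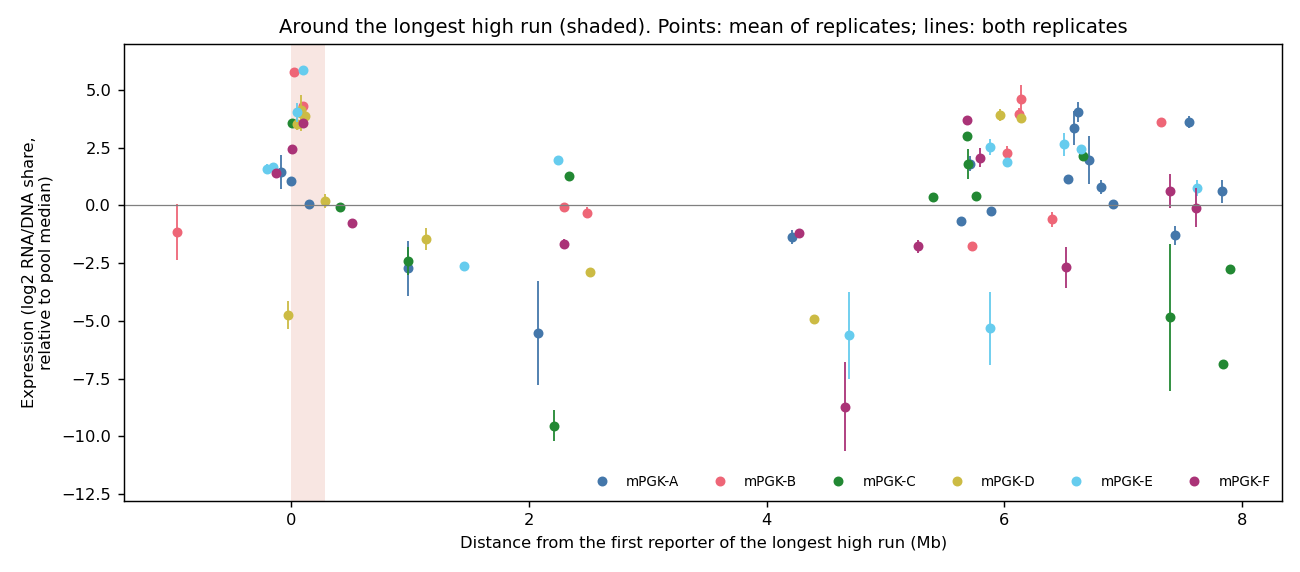
Expression of single reporters (vertical axis, log2 relative to the pool median; points are the mean of 2 replicates and lines join the replicates) from 1 Mb before to 8 Mb after the first reporter of the longest high run, in Mb, coloured by pool, with the run shaded. The run, at 0.05 to 5.88, is followed by reporters down to -9.54 before output rises again beyond 5 Mb.

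The other named runs were less extreme. The second longest high run, from 34953970 to 35604568, held 12 reporters from 4 pools at 1.80 ± 0.99 (SD), 6 of them from mPGK-C, and 11 were called higher. It lay just to the right of the low pair of mPGK-F edges of the 3.15 Mb gap. The run from 72399487 to 73666109 held 10 reporters at 1.35 ± 1.24 (SD). There were 4 high runs of 9 reporters that shared the fifth place, with means from 1.36 to 2.12. The longest low run, from 75803951 to 78533650, held 14 reporters from 5 pools at -2.68 ± 1.70 (SD), 12 called lower, across 2730 kb. The run from 59204007 to 63058893 held 11 reporters at -2.72 ± 1.5 (SD), and that from 118538701 to 119531110 held 10 at -1.69 ± 1.21 (SD). Low runs were spread more thinly: the 184 low runs with their 391 reporters covered 51.6 Mb, and the 185 high runs with 511 reporters covered 32.7 Mb.

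The running mean of 11 consecutive reporters divided the chromosome into 73 domains, 37 high and 36 low. Of these, 18 were a single reporter without width, 8 high and 10 low, and they enter the median widths. A domain takes its side from the running mean, so its own reporters can lie on the other side. The single reporter of the high domain at 107085155, for instance, had -3.20. Median width was 388 kb for high and 874 kb for low domains, and they covered 54.9 and 79.0 Mb. The widest, from 19458762 to 35580692, spanned 16.1 Mb with 101 reporters at 1.35 ± 1.90 (SD). Domains are cut by these same values, so the sign of pool means in a domain is partly fixed in advance, and no test was made. In this domain pool means ran from 0.78 to 2.06, and 66 of its reporters were called higher and 14 lower. The gaps of 4.36 and 3.15 Mb lie inside it, so empty stretches and high output alternated there. Other wide high domains ran from 11053445 to 17216627 (6.16 Mb, 16 reporters, mean 0.59), from 50834679 to 56499605 (5.66 Mb, 37 reporters, mean 0.53) and from 148005616 to 152100347 (4.09 Mb, 30 reporters, 12 of them from mPGK-F, mean 0.65). Each of these 3 had a pool mean below 0.

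Low domains are cut by the values as well, so the sign of their pool means is partly fixed too. The widest ran from 56519183 to 69562576 over 13.0 Mb and held 37 reporters at -1.67 ± 2.84 (SD), 20 called lower and 8 higher, with all 6 pool means below 0. ATATCAAAATCTATCT, the reporter without RNA reads, lies in it. The low domain from 38707483 to 50184782, 11.5 Mb, holds the 8.03 Mb gap and rests on 17 reporters with a mean of -0.93 ± 2.94 (SD), 6 called higher and 6 lower, so most of its width is empty. Those from 107919668 to 114407483 (6.49 Mb, 16 reporters, mean -1.25) and from 97411204 to 103304148 (5.89 Mb, 17 reporters, mean -0.90) are also thinly filled. Domain number and width depend on the smoothing. With a running mean of 7 there were 91 domains. With a running mean of 21 there were 49, and the widest domain spanned 32.1 Mb. With reporters set against the pool mean in place of the median, the widest spanned 24.5 Mb.

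Neighbouring reporters of different pools were alike at short distance, and this faded well within 1 Mb. The correlation of expression (Pearson) was 0.53 over the 34 pairs less than 1 kb apart. For the 61 pairs separated by 1 to 5 kb it was 0.43, for the 142 pairs of the class up to 20 kb it was 0.39, and for the 278 pairs of the class up to 50 kb it was 0.23. It fell to 0.19 in the class ending at 100 kb, and the classes ending at 200 and 500 kb had 0.11 and 0.13. Beyond 500 kb it was 0.03, and beyond 1000 kb, up to 5000 kb, it was 0.01. Pairs share reporters and positions and are not independent, so no p is given. The pooled pairs of the other autosomes had 0.41 in the shortest class, 0.44 in the next and 0.05 in the longest, and in that longest class 15 of the 18 single autosomes lay above chromosome 7.

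**Figure D5:**
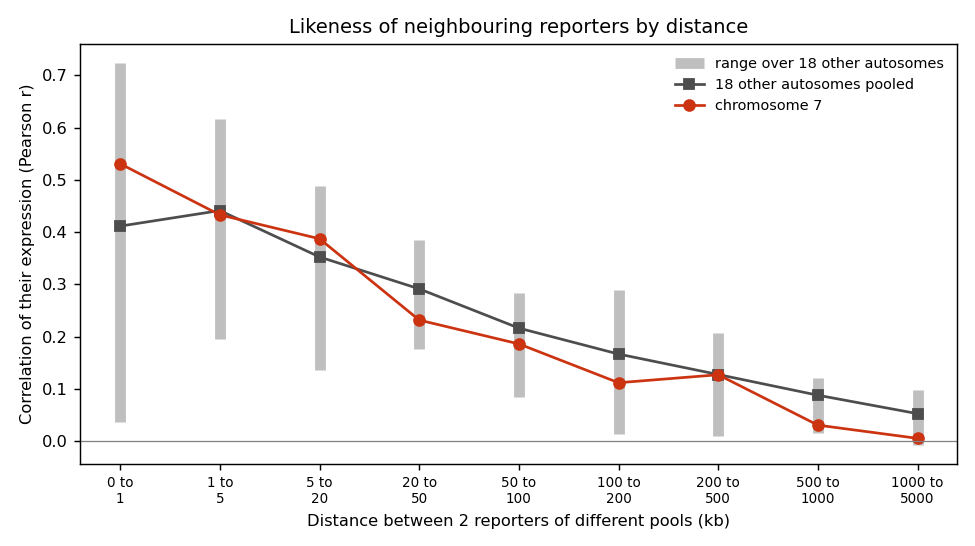
Pearson correlation of expression between reporters of different pools (vertical axis) by their distance in kb, for chromosome 7 (red), the 18 other autosomes pooled (dark squares) and the range over those autosomes (grey bars). Chromosome 7 falls from 0.53 to 0.01 and stays within the range of the others at each distance.

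Likeness at short distance had wide exceptions. The pair that differed most within 5 kb lay 873 bases apart. The mPGK-C reporter at 142193741, on the minus strand, had 1.00 and 1.93. The mPGK-D reporter at 142194614, on the plus strand, had -7.29 and -4.15 from 1295 and 1208 DNA reads and 2 and 21 RNA reads. This is a 145-fold difference, of uncertain size because the replicates of the mPGK-D reporter lay far apart. At 88668124 and 88669167, 1043 bases apart, a mPGK-E reporter had -2.11 and -1.77 and a mPGK-F reporter 2.65 and 3.08, a 28.0-fold difference with replicates close together in both. The pair at 88046500 and 88049934 differed 44.8-fold, but the weaker, of mPGK-C, had -1.68 and -8.02 in its replicates, so the size of that difference is uncertain.

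The closest neighbours lay 1 base apart. There were 7 such pairs on chromosome 7 and 73 on the other chromosomes, and in all of them the left position was on the minus strand and the right one on the plus strand. No 2 reporters in the series were listed at the same base. Whether such a pair marks 1 TTAA site hit in both orientations was not tested, since no genome sequence of mm9 was used. On chromosome 7, 6 of the 7 pairs joined different pools. The values differed by 0.31 to 4.09 log2 units with a median of 2.19, against a median of 1.62 for the other chromosomes. The pair at 28180557 and 28180558 differed most, 17.0-fold: the mPGK-C reporter on the minus strand had -0.08 and -0.77 and the mPGK-B reporter on the plus strand had 3.54 and 3.78. At 144601166 and 144601167 the minus strand reporter of mPGK-F had 0.36 and 0.38 and the plus strand reporter of mPGK-A had 3.51 and 4.21, an 11.2-fold difference. The pair at 50834678 and 50834679 was nearly equal, with -0.29 and -0.23 against 0.04 and 0.06. The plus strand reporter was the higher in 5 of the 7 pairs here and in 33 of the 73 elsewhere, so no orientation was favoured over the whole series.

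Dense clusters were not all strong. Besides the cluster that starts at 80654171, 10 reporters from 6 pools lay within 92.4 kb from 104485915, with a mean of 1.70 ± 1.31 (SD) and 8 called higher. Less than 300 kb to the right, 8 reporters from 6 pools within 96.8 kb from 104856475 averaged 0.10 ± 1.56 (SD), 4 called higher and 2 lower. Near the start of the chromosome, 6 reporters from 6 pools within 78.0 kb from 3523095 averaged 2.49 ± 1.19 (SD), and all 6 were called higher.

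For 43 chromosome 7 reporters the same barcode was also listed in another pool, giving 45 pairs of which 39 have their partner on another chromosome. None of the 45 partners lay within 100 kb. Their expression was not alike, with a correlation of -0.29 across the 45 pairs and a median difference of 2.35 log2 units. For comparison, pairs of different pools 1000 to 5000 kb apart on chromosome 7 had a median difference of 2.08. Partners differ in pool as well as place, the pairs share reporters, and no test was made.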

How the data were processed

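RNA and genomic DNA barcode reads were measured in 6 pools of EBRTcH3 cells with 2 cultures each. The deposited table holds raw read counts per integration and replicate, per the file headers. Barcodes were amplified from cDNA or genomic DNA in 2 PCRs per replicate, and integrations were located by inverse PCR after DpnII digestion, per the labels' protocols. Bowtie2 2.0 and mm9 are named in the submitters' processing notes. How PCRs were combined, how barcodes were filtered and whether positions count from 0 or 1 are not given in the sources used here.

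Each pool was fitted alone with edgeR 4.0.16 (R 4.3.3; filterByExpr, TMM, RNA against DNA, ratios shifted to the pool median), with Benjamini-Hochberg adjustment over all 17857 reporters of the series. Windows were fitted with limma 3.58.1 over all chromosomes. Exact permutation tests over pools and descriptions used Python 3.11.15, numpy 2.4.6, scipy 1.17.1 and pandas 2.3.3, and DESeq2 1.42.0 was an alternative to edgeR. The edgeR and limma steps were tested on simulated data. The threshold was 0.05 throughout. The 2 replicates are cultures of 1 pool, so what edgeR tests is set against technical spread alone.

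Replicate numbers pair RNA with DNA of the same culture, per the labels' protocols. The deviations of paired RNA and DNA from their means correlated at -0.0021 to 0.058 over reporters in the 6 pools.

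Reporters were taken by their chromosome alone, and edges, neighbours and windows by position. Named reporters were the 5 highest and 5 lowest with RNA reads, the one without RNA reads with most DNA reads and the edges of the 6 longest gaps. Named windows were those past the threshold, at most 6 in each direction; the 5 longest runs and 4 widest domains of each kind, the 3 close pairs that differ most and the closest pairs were also named. The clusters of highest density, the single low reporter beside the longest high run and the 1-base pairs of 1 pool were added after their values were seen. The members and lists were chosen with earlier results of these data known. Alternatives covered pseudocount, filters, gap length, neighbour distance, windows, weights, smoothing and each pool or replicate left out.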

Additional observations from a re-analysis of the deposited data

Results flagged for a closer look

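Of 14 groups of 6 pool values checked for a value far from the others, 1 was marked; chance alone marks about 1 in 20 such groups. The effect of local density on chromosome 7 minus that on all other chromosomes was 1.33 in mPGK-A, while the other 5 pools lay between -0.40 and 0.02. In mPGK-A the 22 isolated reporters of chromosome 7 averaged -2.03, where those of the other pools averaged -1.23 to -0.69, and its 24 dense reporters averaged 1.54, within the range of the other pools (0.87 to 1.55).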

How the results depend on the processing

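The level, density and edge differences kept their sign under the alternatives run, except that edges of gaps of 2000000 bases or more gave 0.27, and none of the pool tests passed 0.05 after adjustment in any of them; with a pool left out they could not, since the smallest two-sided exact permutation p is then 0.0625. Strand ranged from -0.088 to 0.095 with a pool or replicate left out. The density difference between chromosome 7 and the rest ranged from -0.21 to 0.17 likewise, and was -0.066 without barcodes listed in several pools. The edgeR counts were 396 higher and 257 lower (36.9% and 33.7% of all reporters of the series). They became 391 and 252 with the replicate block (36.6% and 32.9% of all) and 395 and 256 with DESeq2 (37.0% and 33.6%). When TMM ratios were not shifted to the pool median, they were 362 and 293 (32.8% and 38.3% of all), and pool medians lay at -0.27 to -0.23. With 1 replicate of RNA or DNA left out they were 365 to 395 and 225 to 244 (34.1% to 35.8% and 29.5% to 31.6% of all). The 8 higher windows became 4 without weights, and 4 to 7 with a pool or replicate left out: 5 without mPGK-C or mPGK-F, and 4 without mPGK-D or mPGK-E. The 4 lower windows became 2 without weights, 0 with windows of 1 Mb, 2 when windows were shifted by 1 Mb, and 0 to 4 with a pool or replicate left out: 0 without mPGK-F, and 2 without mPGK-A, mPGK-B, mPGK-C or replicate 1. With a pool left out, some lower windows fell under the minimum of reporters and pools and were not tested. The higher windows at 20 to 22 and 26 to 28 Mb were still tested without mPGK-D and missed 0.05 (limma, adjusted p = 0.13 and 0.12). The cause of losses among windows still tested was not examined. Values of nearly silent reporters are limited by RNA reads: TTTTAAACTCAGATAG moved from -9.08 to -6.71 with a pseudocount of 5.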

Other observations

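The sides of the long gaps differed on chromosome 7, which was noticed after the values were seen. Over its 18 gaps of 1 Mb or more, 8 left edges and 2 right edges lay above the pool median, and the left edge was the higher in 13, or 72.2%. The left edges averaged -0.13 and the right edges -2.14. Over the 226 such gaps of the other chromosomes the left edge was the higher in 112, or 49.6%, with averages of -1.80 and -1.68. For gaps of 2 Mb or more, the left edge was the higher in 6 of 6 on chromosome 7 and in 12 of 27 elsewhere. Left and right follow the numbering of the chromosome. These counts are given as a description, and the difference was not tested.

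The largest clone of the series and a nearly silent reporter coincide on chromosome 7. CCCAAACTTGGGTCTT had 97194 DNA reads in both replicates together, rank 1 of all reporters, and the next largest on the chromosome, at 107308482 and also of mPGK-C, had 20998. TCAACGACATTATAGA, another of the weakest reporters, ranked 3 in mPGK-F by DNA reads. Over all 902 reporters, DNA reads and expression were unrelated in rank, with Spearman's rho of -0.022 across reporters, which are not independent. The number of neighbours within 100 kb and expression had a rho of 0.33 across the reporters of chromosome 7 and 0.34 across the 16955 others.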
